A study of Homo sapiens with 9 samples.

Results

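CDKN1A, CDKN1B, CDKN1C, CDKN2C, CDKN2D and CDKN3, which carry the name cyclin-dependent kinase inhibitor, and MDM2, a ubiquitin ligase gene, were followed by name through RNA-seq of BT549 cells in which the long non-coding RNA WFDC21P was targeted by small interfering RNA (siRNA). These 7 genes were chosen by name, with earlier results of these data known. All 7 were present among the 26636 genes listed in all 9 expression tables, and all 7 were among the 13014 genes whose mean over the 9 libraries reached 1 FPKM and which were tested. FPKM is the number of sequenced fragments scaled by gene length and by the library's mapped reads, so levels of different genes can be set side by side per length. For most genes that length matched the summed length of all annotated exons.

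Cyclin-dependent kinases (CDKs) drive the cell cycle when bound to cyclins, and CDK inhibitors hold them back. The CIP/KIP proteins p21 (CDKN1A), p27 (CDKN1B) and p57 (CDKN1C) bind cyclin-CDK complexes broadly, whereas the INK4 proteins, among them p18 (CDKN2C) and p19 (CDKN2D), bind CDK4 and CDK6 and keep the retinoblastoma protein active. MDM2 is a ubiquitin ligase that marks proteins for degradation, and both it and CDKN1A are classical genes of the DNA damage response. CDKN3 is a phosphatase that removes an activating phosphate from CDKs, and its transcript is highest in dividing cells.

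BT549 is an established breast cancer line, commonly described as triple-negative and mesenchymal-like. Cells grown in RPMI medium with insulin and fetal bovine serum received 5 µl of a 10 µM siRNA stock and were harvested after 48 h, and 1 µg of RNA went into each library. The groups were a control siRNA (siNC), a first siRNA against WFDC21P (siWFDC21P-1) and a second (siWFDC21P-2), with 3 libraries each, all labelled genotype WT. Groups follow the sample titles. The library names of the siWFDC21P-2 replicates are BT549si2, BT549si3 and BT549si4, so the labels leave unclear whether these 3 received the same siRNA. The labels do not say whether the 3 libraries of a group came from separate cultures, so p-values measure only the spread between these libraries. In bulk RNA, fewer cells of a type and less RNA per cell cannot be told apart.

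The 9 libraries did not share 1 expression profile. Clustering of all expressed genes gave 3 sets, called backgrounds here, with Pearson r of log2 values of 0.927 to 0.986 within sets and 0.658 to 0.744 between them. Background 1 comprised siWFDC21P-1 replicates 1 and 2 with siNC replicate 1. Background 2 comprised siWFDC21P-1 replicate 3 with the library labelled siNC replicate 2, and background 3 all siWFDC21P-2 libraries with siNC replicate 3. Markers went against the BT549 label for background 2, where the summed level of 7 epithelial markers was 1012 to 1610 FPKM and that of 7 mesenchymal markers 6.69 to 12.7 FPKM. In background 3 the same sums were 6.50 to 10.0 FPKM and 382 to 511 FPKM. In background 1 they were 174 to 383 FPKM for epithelial and 54.7 to 75.6 FPKM for mesenchymal markers. The epithelial sum there was nearly all KRT8 and KRT18, since the other 5 markers of the list were under 1 FPKM in all its libraries. So were the mesenchymal markers CDH2 (N-cadherin) and THY1, with at most 0.00698 and 0.0173 FPKM. In background 3 CDH2 was 14.7 to 18.1 FPKM and THY1 43.6 to 110 FPKM. Markers of background 1 thus also went partly against the label. Depth, as the read total by which the authors scaled, was 28.1 to 29.7 M reads in backgrounds 1 and 2 and 16.3 to 17.4 M in background 3. Each knockdown library was therefore compared with the siNC library of its own background, which leaves 1 control library per background and no shared control between the siRNAs. The part of culture, cell identity or batch in any difference was not tested.

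The targeted transcript, WFDC21P (chromosome 17, 60083566 to 60091885, minus strand, hg38), was measured first. It stood at 3.08, 0.129 and 6.87 FPKM in siNC replicates 1 to 3, at 0.0629, 0.767 and 0.227 FPKM with siWFDC21P-1, and at 4.13, 3.32 and 2.12 FPKM with siWFDC21P-2. In background 1 the siWFDC21P-1 libraries held 2.04% and 24.9% of the control level, and in background 3 the siWFDC21P-2 libraries held 60.2%, 48.3% and 30.8%. In background 2 the control held 4 reads and siWFDC21P-1 replicate 3 held 7, so a knockdown was not detectable there at this depth. That library is still counted among the 6 knockdown libraries, by its label.

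Promoter sequences are shown for CDKN1A, the gene below its control in all 6 knockdown libraries, and for CDKN3 and CDKN2C, which with CDKN1B lay above theirs in all 6. They come from RefSeq's table for GRCh38.p14 and stop before the first annotated exon base of the window, 5′ to 3′ on the gene's strand, which is plus for all 3. Capitals mark matches on either strand to any of 4 short motifs, and no marked matches overlap. The GC box, bound by Sp factors, was searched as GGGCGG. The CCAAT box, bound by NF-Y, was searched by the letters of its name. The CHR (cell cycle homology region) of many cell cycle genes was searched as TTTGAA. The TATA box near some transcription starts was searched as TATAAA.
CDKN1A, chr6:36678464-36678657: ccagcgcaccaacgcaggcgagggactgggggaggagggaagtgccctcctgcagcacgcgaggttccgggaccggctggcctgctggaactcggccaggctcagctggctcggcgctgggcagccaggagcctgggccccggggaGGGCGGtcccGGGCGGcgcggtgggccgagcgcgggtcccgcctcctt
CDKN3, chr14:54396757-54396848: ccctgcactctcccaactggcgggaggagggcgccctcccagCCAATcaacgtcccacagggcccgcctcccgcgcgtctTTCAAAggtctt
CDKN2C, upstream start, chr1:50960495-50960744: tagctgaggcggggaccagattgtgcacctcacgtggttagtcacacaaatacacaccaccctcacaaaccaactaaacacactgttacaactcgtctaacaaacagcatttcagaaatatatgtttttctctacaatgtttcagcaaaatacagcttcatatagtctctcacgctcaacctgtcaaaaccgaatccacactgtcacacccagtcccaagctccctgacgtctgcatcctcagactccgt
The CDKN1A stretch held 2 GC boxes, and 4 lay in the full window of 250 bases. The CDKN3 stretch held 1 CCAAT box and 1 CHR match, written on the opposite strand as TTCAAA. The full CDKN3 window held 2 CCAAT boxes. CDKN1B is not printed, since only 6 bases of its window precede its first annotated exon base. Its full window held 1 GC box and 2 CCAAT boxes. The CDKN2C stretch held none of the 4 motifs, but of the other CDKN2C start windows, which overlap exons and are not printed, the first held 5 GC boxes and the next 1 GC box and 1 CCAAT box. Among 35116 windows of 250 bases, 42.6% held a GC box, 32.0% a CCAAT box, 13.3% a CHR match and 10.7% a TATA box. A match describes letters only.

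CDKN1A encodes p21 and lies on chromosome 6 from 36676460 to 36687339, plus strand; the non-coding gene DINOL overlaps it on the minus strand and is not analysed here. Its level in siNC was 324, 50.6 and 23.8 FPKM in replicates 1, 2 and 3, which belong to backgrounds 1, 2 and 3. With siWFDC21P-1 it was 65.8 and 54.6 FPKM in background 1 and 8.55 FPKM in background 2. With siWFDC21P-2, in background 3, it was 11.7, 7.52 and 10.1 FPKM. Every knockdown library lay below the control of its own background, while the control of background 3 was lower than 2 of the 3 siWFDC21P-1 libraries. Pooled by label alone, siNC gave 133 ± 166 FPKM (SD, n = 3), siWFDC21P-1 43.0 ± 30.3 and siWFDC21P-2 9.75 ± 2.09, and the first 2 groups overlapped.

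**Figure D1:**
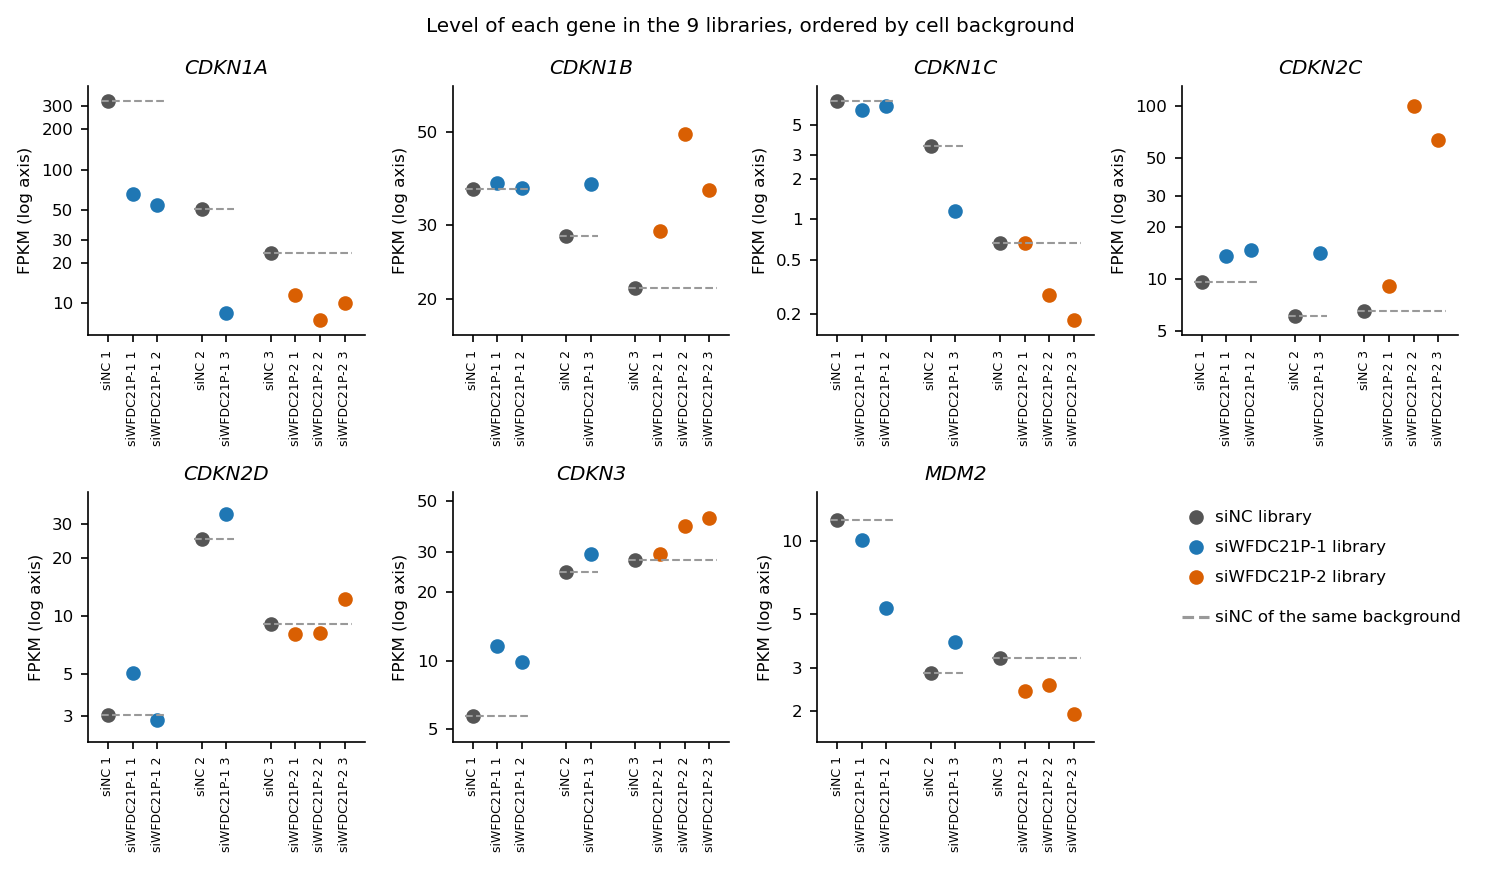
FPKM (log axis) of the 7 genes in the 9 libraries, ordered by background 1, 2 and 3 from left to right; dashed lines mark the siNC library of each background. CDKN1A lies below its dashed line in all 6 knockdown libraries, and CDKN1B, CDKN2C and CDKN3 lie on or above theirs.

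Against the control of its background, CDKN1A stood at 20.3% (95% counting interval 19.8 to 20.9), 16.9% (16.4 to 17.4) and 16.9% (15.6 to 18.3) in siWFDC21P-1 replicates 1 to 3. These are levels 4.92-, 5.93- and 5.92-fold lower, from 28869 control reads in background 1 and 4369 in background 2. With siWFDC21P-2 it stood at 49.0% (44.4 to 54.0), 31.6% (28.1 to 35.5) and 42.2% (38.0 to 46.8) of a control of 1184 reads. The intervals are exact for the counts and cover counting error only. The 3 siWFDC21P-1 ratios lay close together although the control levels were 324 and 50.6 FPKM, and none overlapped the siWFDC21P-2 range. In background 2, however, no knockdown of WFDC21P was detectable, with 7 reads in siWFDC21P-1 replicate 3 against 4 in the control. The ratio of that replicate is therefore not tied to a measured knockdown.

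A limma model of log2(FPKM + 1) with the siRNA group and the background as terms gave a CDKN1A change of -2.42 ± 0.21 (SE) for siWFDC21P-1, adjusted p = 0.0442 by the Benjamini-Hochberg method over 13014 genes. Log2 changes from this model understate the change of low genes. CDKN1A had the second lowest change of all tested genes. It was 1 of 3 genes called (0.0231% of those tested) and the only one called lower (0.00768%). The other 2 (0.0154%) rose: GANAB, a glucosidase subunit of the endoplasmic reticulum, by 1.74 and RPL26L1, a ribosomal protein L26-like gene, by 1.59. Since CDKN1A was singled out from this comparison, its call describes the gene and supports nothing further. The call was lost in 13 of 19 alternative settings, with an adjusted p of 0.0258 to 0.961, and the change kept its sign in all 19. Without the background term it was -1.18, and with the gene table style in its place -1.98.

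For siWFDC21P-2 the CDKN1A change was -1.23 ± 0.26, with a limma unadjusted p of 0.00185 and an adjusted p of 0.756, and no gene of the 13014 was called by limma (0.0%). Before adjustment, 682 genes had a p under 0.05 (5.24%). Leaving out siWFDC21P-2 replicate 1, the CDKN1A change was -1.35 with an adjusted p of 0.0229, and 902 genes were then called. Over all genes compared, replicate 1 lay much nearer to its control than replicates 2 and 3 did. The reduced chi-square of read counts against siNC replicate 3, larger for less alike libraries, was 25.5, 159 and 151 for replicates 1 to 3. The 2 siRNAs differed by -1.20 ± 0.33 for CDKN1A, with a limma unadjusted p of 0.00806 and an adjusted p of 0.830, so a difference between them did not pass the test. No gene passed it (0.0%), and 703 (5.4%) had an unadjusted p under 0.05. Each siRNA was measured in other backgrounds than the other, so siRNA and background cannot be told apart in that difference.

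**Figure D2:**
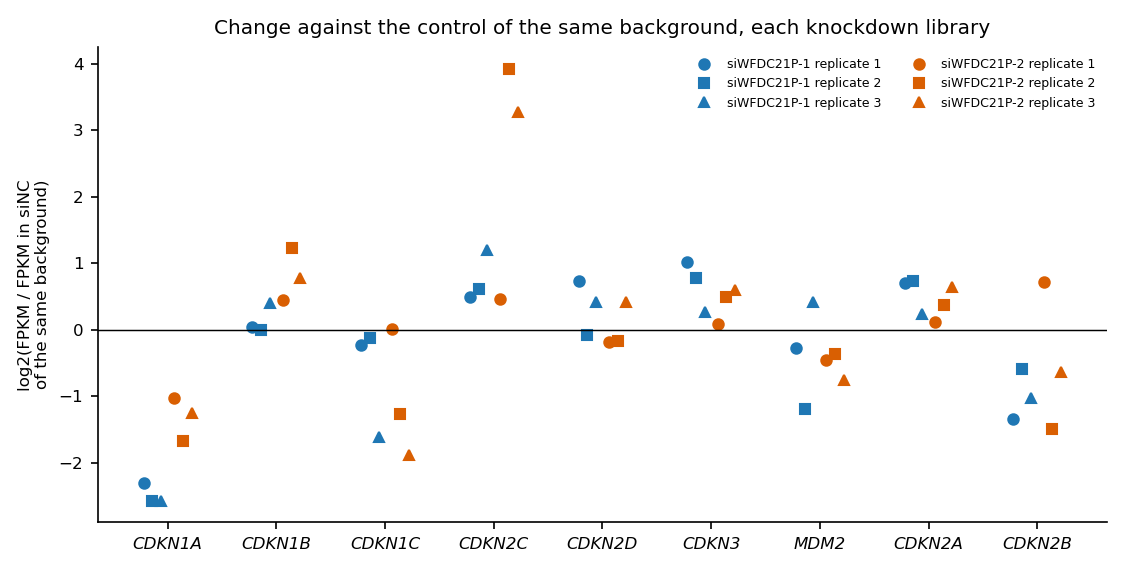
Log2 ratio of FPKM to the siNC library of the same background for 9 genes; each point is 1 knockdown library, blue for siWFDC21P-1 and orange for siWFDC21P-2. CDKN1A has 6 points below 0, and CDKN2C has 2 siWFDC21P-2 points, replicates 2 and 3, far above its other 4.

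CDKN1B, the gene of p27, lies on chromosome 12 from 12715058 to 12722371, plus strand. It measured 36.7, 28.3 and 21.3 FPKM in siNC replicates 1 to 3, 37.8, 36.7 and 37.6 FPKM with siWFDC21P-1, and 29.02, 49.7 and 36.5 FPKM with siWFDC21P-2. All 6 knockdown libraries were at or above their control, but in background 1 by only 1.03- and 1.00-fold, against 1.33-fold in background 2 and 1.36-, 2.33- and 1.71-fold in background 3. The limma change was 0.18 ± 0.24 (first siRNA) and 0.79 ± 0.30 (second), and neither was called.

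CDKN1C, the gene of p57, was the lowest of the CIP/KIP genes, at 7.51, 3.53 and 0.664 FPKM in siNC. It measured 6.44, 6.92 and 1.16 FPKM with siWFDC21P-1 and 0.667, 0.277 and 0.180 FPKM with siWFDC21P-2. Its level followed the background, highest in 1 and lowest in 3, and 5 of 6 knockdown libraries lay below their control. The change was -0.54 ± 0.25 and -0.29 ± 0.32, and neither was called. Whole reads could not be recovered for CDKN1C, so its ratios carry no counting interval.

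The make-up of the CIP/KIP family therefore differed between libraries. CDKN1A made up 88.0%, 61.4% and 52.0% of the summed CIP/KIP FPKM in siNC replicates 1 to 3. Its share was 59.8% and 55.5% in the knockdown libraries of background 1 and 18.1% in that of background 2. In background 3 it was 28.2%, 13.1% and 21.5%. CDKN1A exceeded CDKN1B in all 3 controls, by 8.82-, 1.79- and 1.12-fold. It stayed above CDKN1B in background 1 after knockdown, by 1.74- and 1.49-fold, whereas in backgrounds 2 and 3 CDKN1B was the higher, by 4.40-fold and by 2.49-, 6.60- and 3.63-fold.

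**Figure D3:**
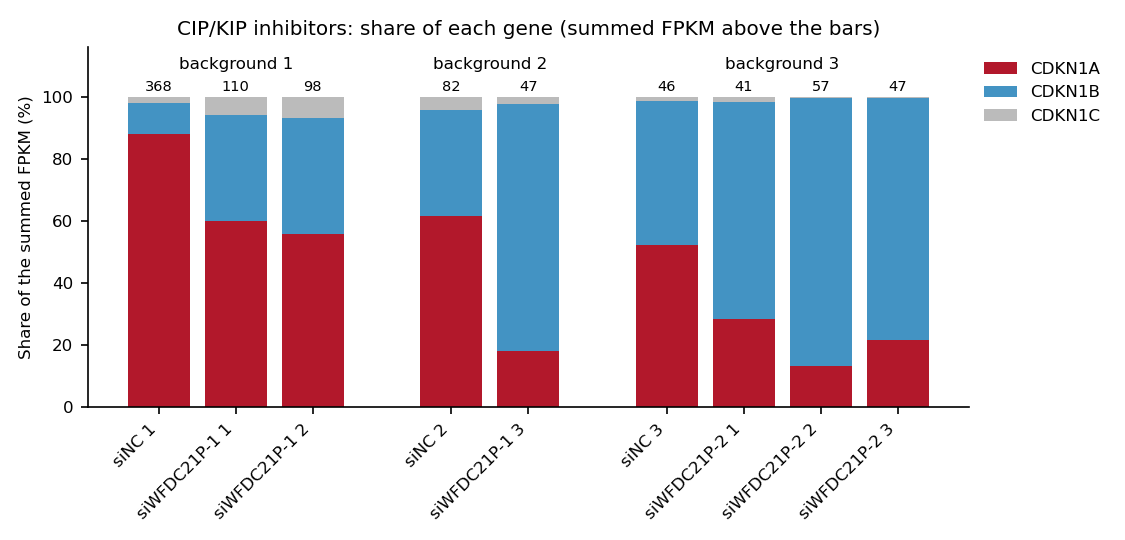
Share (%) of CDKN1A, CDKN1B and CDKN1C in their summed FPKM in each library, grouped by background, with the sum above each bar. The CDKN1A share is lower in every knockdown library than in the control of its background, and the sum falls from 368 FPKM in siNC replicate 1 to 110 and 98.2 FPKM in its knockdown libraries.

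Among the INK4 genes, CDKN2C (p18; chromosome 1, 50960745 to 50974633, plus strand) measured 9.58, 6.17 and 6.56 FPKM in siNC. It was 13.5, 14.7 and 14.2 FPKM with siWFDC21P-1 and 9.10, 99.7 and 63.4 FPKM with siWFDC21P-2. Every siWFDC21P-1 library lay above every control, by 1.41-, 1.53- and 2.31-fold over its own. The siWFDC21P-2 libraries spread widely, at 1.39-, 15.2- and 9.66-fold, with replicate 1 next to its control and replicates 2 and 3 well above all others.

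The limma change of CDKN2C was 0.76 ± 0.86 with the first siRNA and 2.41 ± 1.07 with the second, the fourth highest of 13014 genes, with an adjusted p of 0.756. Leaving out siWFDC21P-2 replicate 1, it was 3.41 and was called, with a limma adjusted p of 0.00661, as 1 of 902 genes. The read counts behind siWFDC21P-2 were 525, 5534 and 3615, against 355 in the control, so counting error is small beside the spread between the 3 libraries.

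CDKN2D (p19) varied more between backgrounds than within them. It was 3.03 FPKM in siNC of background 1, 25.1 in that of background 2 and 9.10 in that of background 3. The knockdown libraries measured 5.01, 2.87 and 33.6 FPKM with siWFDC21P-1 and 8.03, 8.11 and 12.2 FPKM with siWFDC21P-2. Of the 6, 3 lay above and 3 below their control, and the limma changes were 0.32 ± 0.26 and 0.02 ± 0.32.

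The other INK4 genes, CDKN2A (p16 and ARF) and CDKN2B (p15), did not belong to the 7 genes but complete the family. CDKN2A was 47.8, 47.2 and 89.9 FPKM in siNC, 77.6, 79.8 and 55.8 FPKM with siWFDC21P-1 and 97.3, 117 and 140 FPKM with siWFDC21P-2, above its control in all 6. CDKN2B was below its control in 5 of 6, at 5.20, 8.76 and 3.23 FPKM against 13.1 and 6.57 FPKM after the first siRNA and at 40.0, 8.64 and 15.6 FPKM against 24.2 FPKM with siWFDC21P-2. CDKN2B-AS1 overlaps both genes on the other strand, and whether counting used strand is not given in the sources used here. Neither gene was called in either comparison.

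CDKN3 (chromosome 14, 54396849 to 54420218, plus strand) was 5.74, 24.4 and 27.6 FPKM in siNC, 11.6, 9.88 and 29.3 FPKM with siWFDC21P-1 and 29.5, 39.1 and 42.1 FPKM with siWFDC21P-2. All 6 knockdown libraries lay above their control, by 2.03-, 1.72- and 1.20-fold and by 1.07-, 1.41- and 1.52-fold. The limma change was 0.57 ± 0.22 and 0.39 ± 0.27, and neither was called. Across the 9 libraries CDKN3 ran against CDKN1A, with a Pearson r of log2(FPKM + 1) of -0.924, in libraries that share 3 backgrounds. Over the 6 differences from control the r was -0.463.

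Of the 7 genes, 1 (CDKN1A) lay below its control in all 6 knockdown libraries and 3 (CDKN1B, CDKN2C and CDKN3) above. Over all tested genes 7.92% lay below in all 6 and 10.8% above, and 3 of 7 is given as a count, since the genes were chosen with these values known.

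MDM2 (chromosome 12, 68808176 to 68850686, plus strand) was 12.1, 2.87 and 3.28 FPKM in siNC, 10.0, 5.29 and 3.83 FPKM with siWFDC21P-1 and 2.41, 2.54 and 1.94 FPKM with siWFDC21P-2. Like CDKN1A, MDM2 was highest in the siNC library of background 1. Against their controls the siWFDC21P-1 libraries stood at 82.6%, 43.7% and 134%, and the siWFDC21P-2 libraries at 73.4%, 77.5% and 59.0%. The limma change was -0.24 ± 0.31 and -0.38 ± 0.38, and neither was called. MDM2 overlaps CPM on the other strand, and their reads may be split by the counting.

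Among 25 tested regulators of CDKN1A transcription, median log2 changes were 0.02 with the first siRNA and -0.13 with the second, against 0.03 and 0.02 over all tested genes. EGR1 and IRF1, activators of transcription, lay below their control in all 6, and ZBTB17, STAT3 and HDAC1 above. Over all tested genes 7.92% lay below in all 6 and 10.8% above, so these counts are near the shares of all genes. STAT3 in siWFDC21P-1 replicate 1 was level with its control, at 27.74 against 27.72 FPKM. Whether any of these genes acted on CDKN1A was not tested. HDAC1, a histone deacetylase, was at a log2 change of 0.71 ± 0.19 and 1.11 ± 0.24, IRF1 at -0.73 ± 0.23 and -0.44 ± 0.29, and EGR1 at -0.11 ± 0.17 and -0.94 ± 0.21, none past the threshold. EGR1 was under 1 FPKM in all libraries of backgrounds 1 and 2. There the siWFDC21P-1 libraries held 14 and 17 reads against 28 in background 1, and 64 against 69 in background 2. Of the 17 tested genes of CDK inhibitor turnover, 3 lay above control in all 6 and none below: CUL1, RNF123 and UBAC1, the last at 0.83 ± 0.21 and 0.65 ± 0.27. RNF123 and UBAC1 form a ligase for p27.

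Of 7 tested neighbours of CDKN1A on chromosome 6, none lay below control in all 6 libraries, where 7.92% of all tested genes did, and their median log2 change was 0.07 and 0.36. PPIL1 and KCTD20 lay above in all 6, where 10.8% of all tested genes did, and KCTD20 was at 0.43 ± 0.22 and 0.73 ± 0.27. STK38 lay below control in all 3 siWFDC21P-1 libraries and above in all 3 siWFDC21P-2 libraries, at -0.55 ± 0.25 and 0.36 ± 0.32.

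The kinases that the inhibitors restrain showed a mixed pattern. Of 17 tested cyclin and CDK genes, with medians of 0.13 and 0.22, CCNE2 and CDK6 lay below control in all 6 and CCNA2 and CCNB2 above. CCNE2, a cyclin of the G1/S transition, was at -1.28 ± 0.28 and -0.53 ± 0.35, CCND1 at -1.28 ± 0.36 and -0.25 ± 0.45, and CCNB2, a mitotic cyclin, at 0.81 ± 0.28 and 0.65 ± 0.35. Among 19 tested genes of the RB and E2F group, with medians of 0.14 and 0.01, MYBL2, RBL2 and RBBP4 lay above in all 6 and E2F3 and E2F5 below. Over all tested genes 7.92% lay below in all 6 and 10.8% above. No gene of either list was called.

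Of 13 proliferation genes, 7 lay above control in all 6 libraries and none below: MKI67, TOP2A, AURKB, BUB1, CENPF, CCNF and TYMS. Over all tested genes 10.8% lay above in all 6 and 7.92% below. The list was not uniform, since MCM5 and MCM6 lay below control in every siWFDC21P-1 library. Their list had a median log2 change of 0.39 with the first siRNA and 0.72 with the second, and none of its genes was called. MKI67, the proliferation marker Ki-67, measured 6.46, 20.3 and 18.1 FPKM with siWFDC21P-2 against 6.01 FPKM in the control, so replicate 1 lay next to its control and replicates 2 and 3 well above. Leaving out replicate 1, limma called MKI67, CCNF, PLK1, BUB1 and TYMS higher, and of the genes named above also HDAC1, UBAC1, KCTD20 and MYBL2 higher and EGR1 lower. In that setting 902 of all 13014 tested genes were called, 562 higher and 340 lower. These calls therefore do not set the named genes apart. CENPF, a kinetochore protein, was 1.07 ± 0.36 and 0.76 ± 0.45, and CCNF, a mitotic F-box protein, 0.53 ± 0.42 and 1.45 ± 0.53. CDKN3, whose level follows division in many cells, lay above control in the same 6 libraries.

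**Figure D4:**
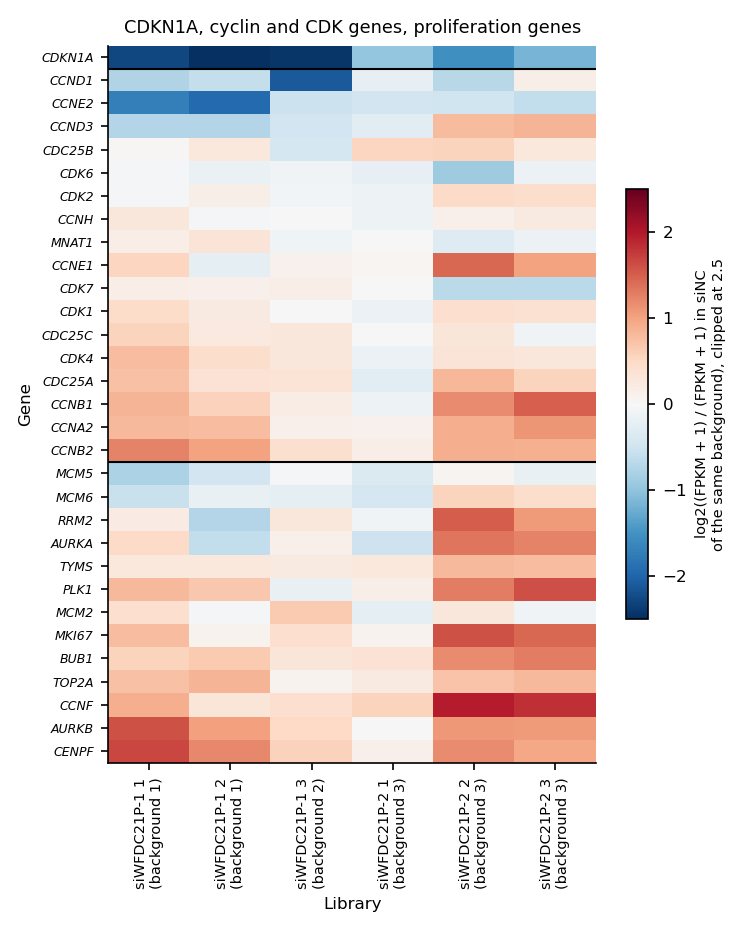
Log2 ratio of FPKM + 1 to the siNC of the same background for CDKN1A, 17 cyclin and CDK genes and 13 proliferation genes in the 6 knockdown libraries, clipped at 2.5. Blue is lower and red higher; CDKN1A and CCNE2 are blue, and CCNA2, CCNB2 and 7 proliferation genes red, in all 6 columns.

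By the rule for likeness, Pearson r of log2(FPKM + 1) with CDKN1A over the 9 libraries was highest for ADIPOR1, at 0.979, IGSF8, at 0.976, and PDXK, at 0.971, among 12423 tested genes with a symbol. IGSF8 measured 57.9, 17.1 and 13.2 FPKM in siNC, 21.6, 21.8 and 10.4 FPKM after the first siRNA and 7.19, 7.42 and 8.73 FPKM with siWFDC21P-2. Among the 7 genes, CDKN1C had an r of 0.885 and MDM2 0.842 with CDKN1A over the 9 libraries, but 0.292 and -0.019 over the 6 differences from the control of the same background. Over the 6 differences from control the closest was SPRY4, at 0.995, and the most unlike ZBTB14, at -0.993. SPRY4 measured 9.98, 4.39 and 27.9 FPKM in siNC replicates 1 to 3 and 3.95, 3.26 and 1.36 FPKM with siWFDC21P-1. With siWFDC21P-2 it measured 20.7, 16.8 and 18.8 FPKM. Its control level was highest in background 3, where that of CDKN1A was lowest. With so few points and shared controls these correlations describe the libraries only.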

How the data were processed

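RNA-seq of 9 BT549 libraries was analysed from FPKM values that the authors deposited as 1 table per library. The build hg38 and the tools HTSeq 0.6.0, HISAT2 2.1.0 and Bowtie2 2.2.3 are named per the submitters' processing notes, with no role; strand and annotation are not given in the sources used here. Tables held 34377 genes (siNC replicates 1 and 2, siWFDC21P-1) or 29104 genes (the others), of which 26636 were shared. Backgrounds were clusters of the libraries at a height of 0.15, made from the same values, so levels between them were not tested. Gene coordinates come from GENCODE v29. Low values were whole multiples of 1 read (95.1% to 96.1% of them, within 0.02 reads), and whole reads were recovered for 24684 genes, with GENCODE v29 exon lengths, for counting intervals (95%) and limma-voom. The test was limma 3.58.1 in R 4.3.3 on log2(FPKM + 1) for the 13014 genes averaging 1 FPKM or more, with group and background as terms and Benjamini-Hochberg adjustment at 0.05. On simulated data of 13014 genes with 200 changed, log2 changes of 2 were recovered at 85.5% (siWFDC21P-1) and 76% (siWFDC21P-2), and changes of 1 at 0%. No 2 libraries agreed within sampling noise (smallest reduced chi-square of read counts 19.9, between siWFDC21P-2 replicates 2 and 3). The genes, lists, background term and tests were chosen with earlier results of these data known. Named genes were the 7, up to 4 genes per list and siRNA with the smallest unadjusted p, and the 5 most and least like CDKN1A; GANAB, RPL26L1 and genes named for lying on 1 side in all 6 libraries were added after their values were seen. Alternatives changed the covariate, pseudocount, filter, scaling, model and libraries. Results that need a withheld item are not reported here.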

Additional observations from a re-analysis of the deposited data

Results flagged for a closer look

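The 86 genes examined were the CDK inhibitors and MDM2 with the genes picked from the lists by smallest unadjusted p. Genes named only for likeness to CDKN1A were not among them, and of those at least ZBTB14 and NCKIPSD met the same rule. Of the 86, 9 had all 3 siWFDC21P-1 libraries on one side of their controls and all 3 siWFDC21P-2 libraries on the other. The difference of the 2 log2 changes, siWFDC21P-1 minus siWFDC21P-2, was -2.12 for SPARC, -1.21 for FN1, -0.91 for STK38, -0.86 for THY1, -0.80 for ZMAT3 and -0.72 for PSME3. It was 0.73 for TFDP2, 0.71 for YEATS4 and 0.32 for BORCS5. The difference itself was tested with limma, and 0 of the 9 passed, each with an adjusted p of 0.83. None of the 9 is a CDK inhibitor or MDM2, and siRNA and background cannot be told apart in these differences. SPARC, FN1 and THY1 are mesenchymal markers. For THY1 the siWFDC21P-1 side rests on 2, 3 and 0 reads against 3 and 3 in the controls, so no direction can be read there.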

How the results depend on the processing

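The number of genes called for siWFDC21P-1, 3 as reported, was 0 with the gene table style in place of the background, 0 with no covariate, 0 with no filter, 0 with libraries centred on their median, 1 with limma-voom on recovered reads, 16 with quantile normalization (10 higher, 6 lower) and 26 with a filter at a mean of 5 FPKM (20 higher, 6 lower). With no filter, 17 genes, all lower, were called for siWFDC21P-2 and 7 for the difference, where 0 were reported. With the replicate block the number called was 0 for siWFDC21P-1, and CDKN1A was -2.38 with a limma adjusted p of 0.219. Deviations of same-numbered libraries from their group means had an r of -0.683 to 0.667. Background was not removed from them: the pair at 0.667 shared a background and the pair at -0.683 did not. These r values therefore cannot show whether the numbers pair the libraries. Leaving out each library in turn gave 0 to 153 genes for siWFDC21P-1, 0 to 902 for siWFDC21P-2 and 0 to 182 for the difference, the high ends all without siWFDC21P-2 replicate 1; without siNC replicate 1, siWFDC21P-1 replicate 1, or siWFDC21P-2 replicate 2 or 3, none was called for siWFDC21P-1, and without siWFDC21P-1 replicate 2, 1. Without siNC replicate 3 the siWFDC21P-2 effect could not be estimated. CDKN1A was lower in every alternative run, from -2.49 to -1.18 for siWFDC21P-1 and from -2.81 to -1.07 for siWFDC21P-2; its siWFDC21P-1 call also went without both libraries of background 2 (added after seeing the data; adjusted p = 0.159). The model takes 1 spread estimate from all 9 libraries, so the siWFDC21P-1 error also depends on the siWFDC21P-2 libraries. Without siWFDC21P-2 replicate 1 the CDKN1A change for siWFDC21P-1 stayed at -2.42, and its SE went from 0.209 to 0.164. Spread between controls of the same background could not be estimated. Apart from this shared spread and from fewer genes tested or fewer samples, the cause of the changed calls was not tested. One control per background and 16.3 to 29.7 M reads limit all values. In the simulation, with 200 changed genes of higher expression, log2 changes of 1 were not recovered.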
